A study of Mus musculus with 6 samples.

Results

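The proteasome is the protease complex that degrades proteins tagged with ubiquitin. Its 20S core is a stack of alpha and beta rings in which the beta subunits Psmb5, Psmb6 and Psmb7 cut the substrate, its 19S cap carries ATPases that unfold and feed the substrate and non-ATPase subunits that bind and strip ubiquitin, and chaperones assemble both particles. In skeletal muscle the ubiquitin proteasome system turns over myofibrillar and other proteins, and the transcription factor NRF1 (gene Nfe2l1) is known to induce subunit genes when proteasome activity falls. H3K27ac, acetylation of histone H3 at lysine 27, marks active promoters and enhancers. The genes examined were those whose symbol begins with Psm, a letter from a to g and a digit, and a member was every H3K27ac peak that the deposited annotation assigned to such a gene. There were 88 member peaks of 46988 in control mice (42 genes) and 84 of 40721 in detrained mice (43 genes).

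H3K27ac ChIP-seq was performed on quadriceps of wild type C57BL/6 males in 2 groups, with 2 H3K27ac libraries and 1 input per group. As strain the study's methods name C57BL/6J, and the labels of the 2 inputs read C57BL/7 and C57BL/8. Control mice lived in cages without wheels, and detrained mice had 4 weeks of access to a running wheel from 8 weeks of age and were killed once 72 hours had passed since the last running bout. Each H3K27ac library came from 1 quadriceps of 1 animal, and in the tables the libraries are named C2 and C3 in control and Ex1 and Ex2 in detrained mice. Totals were 20805019 to 22400894 tags per H3K27ac library, and the inputs held 10812470 tags in control and 21298438 in detrained mice. The tables were made separately for each group, and 2 libraries against 2 are too few for an exact permutation test to reach 0.05, so the groups are compared by the values of every library, without a test. In whole muscle, fewer cells of a type and less acetylation per cell cannot be told apart. Start-covering peaks were listed for 6 of 8 muscle fibre markers in control and 7 of 8 in detrained mice (Tnnt3, encoding fast troponin T, had none in either list), at a density of 38.3 to 118 tags per kb, whereas of 6 immune markers 2 and 4 had one, at most 36.3, with Csf1r and Lyz2 in both lists, Ptprc and Itgam in the detrained list only, and Cd68 and Adgre1 in neither. Over the muscle fibre list the summed density was 395 and 490 in control and 567 and 533 in detrained libraries. Myh4 (79.3 and 76.7) enters that sum in the detrained group only. Over the immune list the sum was 49.7 and 42.2 against 103 and 80.4. Both sums hold more listed peaks in the detrained group, so they are not over the same genes. The part of cell composition in the values below was not tested.

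Promoter sequences are given first because Nrf1 and Nrf2 recognize the antioxidant response element, the element through which subunit genes are known to be induced. Promoters of 43 of the 51 genes were in the RefSeq table (GRCm38.p6, from 250 bases before to 50 bases after the start), 47 in all; Psma8, Psmb1, Psmb2, Psmb7, Psmc3, Psmd3, Psmd7 and Psmg2 had no entry. The element's core, TGACNNNGC on either strand, occurred in 6 of the 47 promoters (12.8%), against 12.4% of all 32851 promoters in the table and 14.2% of the 13048 whose start lay in a control peak; among member promoters in a control peak it was 4 of 42. The 6 windows are shown in the direction of transcription, with the core (or its reverse complement) in capitals.
Psmb5: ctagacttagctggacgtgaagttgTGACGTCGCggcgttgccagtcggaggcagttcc
Psmb6: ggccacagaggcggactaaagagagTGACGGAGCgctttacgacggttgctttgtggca
Psmd9: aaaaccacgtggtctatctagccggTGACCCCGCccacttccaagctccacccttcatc
Psme4: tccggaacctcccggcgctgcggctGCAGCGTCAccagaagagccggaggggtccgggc
Psmc6: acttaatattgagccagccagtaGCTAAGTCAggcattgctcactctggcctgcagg
Psmd12: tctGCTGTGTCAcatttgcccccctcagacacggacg
They lie at chr14:54618009-54618067 (minus strand), chr11:70525323-70525381 (plus), chr5:123228134-123228192 (plus), chr11:30771743-30771801 (plus), chr14:45329574-45329630 (plus) and chr11:107479278-107479314 (plus). The core was centred 43, 5, 27 and 3 bases before the start in Psmb5, Psmb6, Psmd9 and Psme4, and 223 and 243 bases before it in Psmc6 and Psmd12. A match is a description of the letters and not evidence of binding.

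A motif shared by more of the genes was the ETS core, CCGGAAG on either strand. It occurred in 17 of the 47 member promoters (36.2%), against 8.86% of all promoters and 17.2% of those whose start lay in a control peak. Among member promoters in a control peak it was 17 of 42. The promoters with it include those of Psmc3ip and Psme3ip1, which are not subunits. Matches near the start in cap, activator and chaperone genes are printed, as examples, with the core in capitals.
Psmd12: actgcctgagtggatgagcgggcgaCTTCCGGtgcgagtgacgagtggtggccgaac
Psmd11: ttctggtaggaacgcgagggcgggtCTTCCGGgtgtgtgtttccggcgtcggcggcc
Psmc2: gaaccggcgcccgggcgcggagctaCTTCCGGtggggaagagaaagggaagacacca
Psmd6: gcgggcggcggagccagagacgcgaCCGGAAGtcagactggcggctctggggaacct
Psme4: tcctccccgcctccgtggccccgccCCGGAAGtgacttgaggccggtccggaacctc
Psmg3: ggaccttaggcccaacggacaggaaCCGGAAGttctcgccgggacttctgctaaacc
These windows lie at chr11:107479486-107479542 (plus), chr11:80428579-80428635 (plus), chr5:21786698-21786754 (plus), chr14:14120959-14121015 (minus), chr11:30771697-30771753 (plus) and chr5:139826859-139826915 (minus). The other motifs were near or below the share in acetylated promoters. The GC box GGGCGG was in 25 of the 47 (53.2%; 35.7% of all, 61.6% of those in a control peak), the CCAAT box in 16 (34.0%; 37.4% of all), and the cyclic AMP response element TGACGTCA in 0 (1.79% of all). Median GC content was 57.3% in the member promoters, 52.7% in all promoters and 61.0% in those in a control peak. Among genes with a start-covering peak in both lists, the median density was 79.5 tags per kb for the 13 with the ETS core and 73.6 for the 19 without it, and the ranges, 51.6 to 101 and 34.9 to 106, overlapped.

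Most subunit genes carried H3K27ac over their transcription start site (TSS) in both groups. A peak was counted as a TSS peak when the annotated start lay within it. By that measure 38 of the 51 genes had a TSS peak in both lists, Psmb6, Psmd9 and Psmg2 had one in the detrained list only, and 10 had none named for them. The 51 include Psmc3ip and Psme3ip1, which are not subunits, and Psmc3ip is 1 of the 38. TSS peaks made up 43.2% of the control and 48.8% of the detrained member peaks, against 22.9% and 26.4% of all peaks in the lists. A TSS peak in both lists was found for 6 of 8 alpha ring, 6 of 7 beta ring, 5 of 6 ATPase, 10 of 11 non-ATPase, 4 of 7 chaperone and 4 of 6 activator or inhibitor genes, and for 2 of the 4 inducible beta genes.

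Of the 10 genes with no TSS peak named for them, 6 had a RefSeq start inside a peak that the annotation had named for a neighbour. The start of Psma4 lay in a peak named for AY074887, that of Psmd13 in the Sirt3 peak, that of Psme1 in the Fitm1 peak, that of Psmd10 in the Atg4a peak, and a start of Psme3ip1 (older symbol Fam192a; not a subunit) in the Rspry1 peak. Another start of Psme3ip1 lay in a control peak listed under the older symbol, which the rule for symbols did not take (39.8 and 32.0 tags per kb), and in no detrained peak. The start of Psmb9, an immunoproteasome subunit whose gene lies head to head with that of the peptide transporter Tap1, lay in the Tap1 peak (chr17:34186555-34188722 in control). The density of the Psmb9 and Tap1 peak was 64.0 and 53.5 tags per kb in control and 69.3 and 62.4 in detrained libraries, so the groups overlapped. The Psmd10 and Atg4a peak was the weakest of these, at 30.6 and 30.3 in control and 23.4 and 28.7 in detrained libraries. Psmc1 had a peak over its RefSeq start in both lists (60.1 and 71.5, then 82.2 and 70.5), about 2 kb from the start used in the annotation. No listed peak held the start of Psme2b or of Psmb11, the subunit known from thymus, in either group, and Psma8 had neither a peak named for it nor a promoter entry. Psma6 had its TSS peak at a second RefSeq start, while the start at position 55384222 of chromosome 12 was in no listed peak.

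Among the genes with a TSS peak in the detrained list only, Psmg2 was named differently and not absent, because the overlapping control peak was assigned to another gene. Psmb6, the caspase-like catalytic subunit, had a control peak that began just downstream of its start (chr11:70525461-70526093; 48.2 and 44.2 tags per kb), and a detrained peak that covered the start (chr11:70524734-70526049; 34.1 and 39.7). Psmd9, a chaperone of 19S base assembly, had no control peak at its start and a weak detrained one (chr5:123227551-123228956; 36.7 and 35.6 tags per kb, log2 over input 2.24). It was the 1 detrained member TSS peak with no overlapping control peak, a state seen in 4.18% of all detrained TSS peaks. Its density was at percentile 18.4 of detrained TSS peaks.

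The density at the start was above that of the typical TSS peak. It is given as (tags + 0.5) per kb of peak per 10000000 total tags of the library. The median density of the 38 control member TSS peaks was 76.2 in C2 and 77.7 in C3, against 59.9 and 60.3 for all 10776 TSS peaks. For the 41 detrained member TSS peaks it was 80.001 in Ex1 and 69.3 in Ex2, against 61.0 and 56.8 for all 10751. On the log2 scale the member median lay 0.36 above that of all TSS peaks in control and 0.34 in detrained mice, with an SD between the libraries of 0.01 and 0.07. In control mice 31 of 38 and in detrained mice 33 of 41 member peaks were above the median of all TSS peaks, and the median member was at percentile 71.1 and 69.7. The member peaks were shorter, with median lengths of 1821.5 and 1712 bp in the control and detrained lists, against 2127 and 2119 bp for all TSS peaks. Counted as tags per peak, without dividing by length, the member median exceeded that of all TSS peaks by 0.10 and 0.03 on the log2 scale. The median log2 of H3K27ac over input was 3.12 against 2.91 in control and 2.92 against 2.80 in detrained mice. None of the 38 control peaks reached the top of the distribution, as the strongest was 110 and the strongest TSS peak of the list 232 tags per kb.

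**Figure D1:**
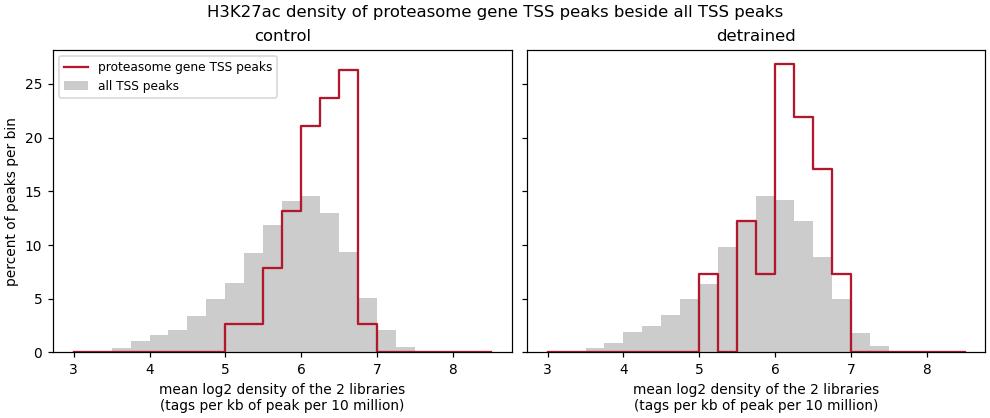
Distribution of H3K27ac density at TSS peaks in control (left) and detrained mice (right), as percent of peaks per bin against the mean log2 density of the 2 libraries (tags per kb of peak per 10000000). Grey bars are all TSS peaks of the list and the red line is the proteasome gene TSS peaks, whose median was 6.27 against 5.91 in control and 6.22 against 5.88 in detrained mice.

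The TSS density of the genes ran from 32.4 to 110 in control and from 36.1 to 116 in detrained mice, where both ends were assembly chaperones (Psmd9 and Psmg2). The highest and lowest genes below are by the mean over the 4 libraries among genes with a TSS peak in both lists, and the order within a single group could differ. In the alpha ring Psma3 was highest (94.2 and 99.1 in control, 123 and 109 in detrained) and Psma5 lowest (58.6 and 61.6, then 70.5 and 49.3), while Psma7 was above Psma3 in both control libraries. In the beta ring Psmb4 was highest (101 and 99.3, then 105 and 90.8) and Psmb3 lowest (64.0 and 60.0, then 54.2 and 48.6), while Psmb1 was above Psmb4 in C3 and in Ex2, and Psmb6 was below Psmb3 in both detrained libraries. The highest and lowest gene of either ring did not overlap in any library. Among the ATPases Psmc5 was highest (93.6 and 94.2, then 93.6 and 78.5) and Psmc4 lowest (50.7 and 55.5, then 62.6 and 43.4). Among the non-ATPase subunits Psmd1, the large scaffold subunit of the cap, was highest (96.5 and 105, then 119 and 101). The deubiquitinase subunit Psmd14 was lowest (54.3 and 43.4, then 46.7 and 47.0). Psmd1 and Psmd14 were apart in every library. Among the chaperones Psmd5 was highest (111 and 101, then 78.8 and 78.5) and Psmg3 lowest (56.3 and 48.3, then 51.9 and 50.3), while among detrained peaks Psmg2 (124 and 109) was above Psmd5 and Psmd9 below Psmg3. Among the activators and the inhibitor Psme3, the nuclear activator PA28 gamma, was highest (96.2 and 102, then 101 and 104) and Psmf1, which encodes the regulator PI31, lowest (44.0 and 44.0, then 52.8 and 48.8), and in control mice Psme4 was level with Psme3. Psmc3ip, a meiotic recombination cofactor that shares only the symbol, was as high as the top subunits (96.2 and 100, then 113 and 95.6). The class medians in control and detrained mice were 81.2 and 72.4 for the alpha ring, 76.4 and 76.3 for the beta ring, 84.3 and 68.0 for the ATPases and 72.4 and 72.0 for the non-ATPase genes, so the order of the classes was not the same in both.

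**Figure D2:**
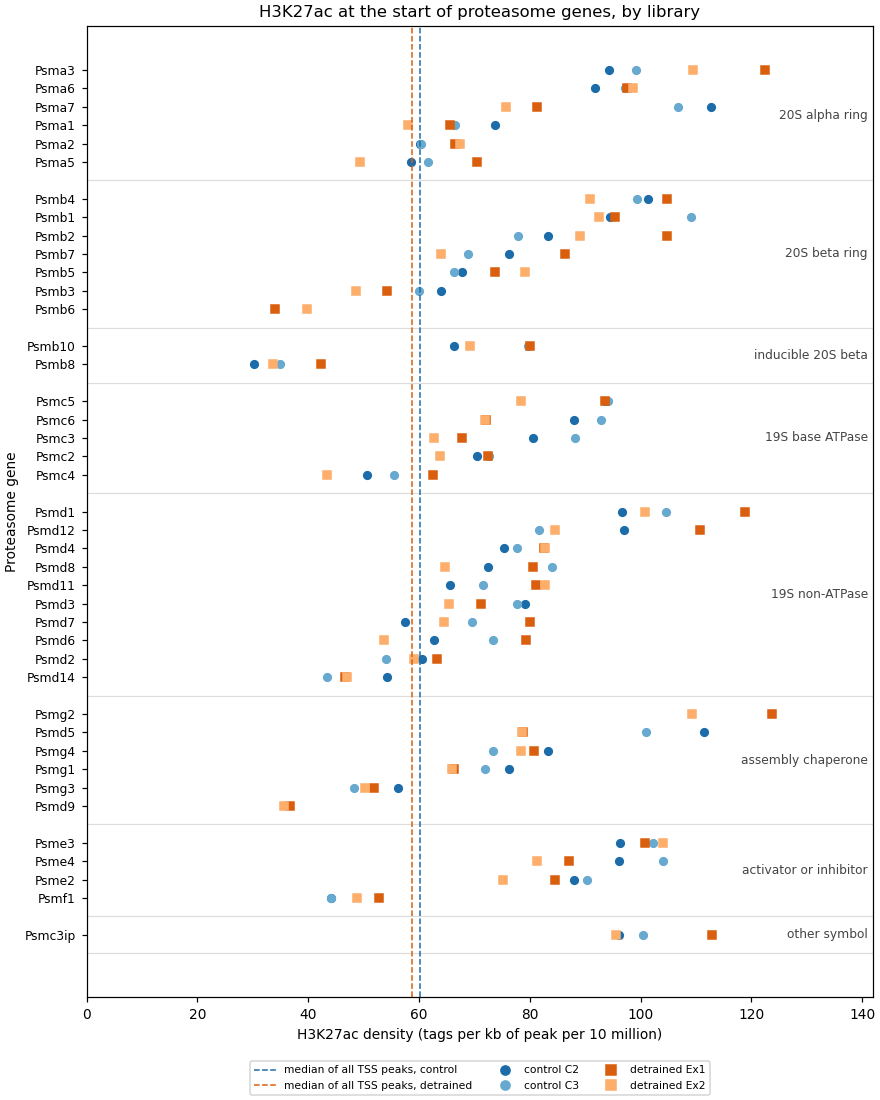
H3K27ac density at the TSS peak of each proteasome gene (x axis, tags per kb of peak per 10000000) by gene and class (y axis), with 1 point for each library. Dashed lines are the medians of all TSS peaks; Psmb8, Psmf1, Psmd14 and Psmg3 lie to their left in all 4 libraries, and Psmb6, Psmd9 and Psmg2 have detrained points only.

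The 3 catalytic subunits and their interferon-inducible counterparts showed no single order. Psmb5, the chymotrypsin-like subunit, stood at 67.8 and 66.4 tags per kb in control and 73.6 and 79.1 in detrained libraries. Psmb7, the trypsin-like subunit, stood at 76.2 and 68.8 in control and 86.4 and 64.0 in detrained libraries. Both detrained libraries were above both control libraries for Psmb5, whereas the groups overlapped for Psmb7. Psmb8, the counterpart of Psmb5, was the weakest TSS peak of the genes with one in both lists (30.1 and 34.9, then 42.2 and 33.6), and each of its libraries was below each library of Psmb5. Psmb10, the counterpart of Psmb7, was level with it at 66.3 and 79.6 in control and 80.001 and 69.3 in detrained libraries. Psmb8 was at percentile 14.04 and 20.3 of all TSS peaks in control and detrained mice, and Psmb10 at percentile 66.2 and 69.8. The Psmb9 and Tap1 peak, given above, was denser than the Psmb6 peak in every library. The groups overlapped for Psmb8 and Psmb10. With scaling to the tags in listed peaks or with centring, both detrained libraries of Psmb8 exceeded the control libraries (differences of 0.27 and 0.26). As tags per peak the Psmb8 difference was -0.27, and the groups overlapped. The called Psmb8 peak was shorter in the detrained list (2061 and 1473 bp), so the direction depended on the scale.

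Between control and detrained mice the subunit genes did not move together. A pair of peaks, 1 from each list, was taken as shared when the overlap covered at least 50% of each. The pairing was 1 to 1 among such overlaps, and smaller overlaps with further peaks were ignored. By this rule 38 member TSS peaks were shared. Ex1 and Ex2 were both below C2 and C3 at 10 of them (26.3%), against 30.3% of the 9337 shared TSS peaks of all genes. Both lay above at 8 (21.1%), against 22.8% of all. The median difference, detrained minus control, was -0.03 on the log2 scale for the member TSS peaks and -0.03 for all shared TSS peaks. The median SD within groups at the member peaks was 0.09. Library values within a group were shrunken toward each other in the deposit, whereas the difference between groups rests on pooled tags. The SDs are thus understated, and groups can be called apart too readily, in members and in all peaks alike. At 21 of the 38 the difference exceeded the SD within groups, as it did at 5672 of all 9337. No member TSS peak differed by 1.5-fold or more without overlap, against 2.32% of all shared TSS peaks, so the member shares were close to the background. Scaled to the tags in listed peaks, the split was 9 below and 13 above, against 24.5% and 30.6% of all shared TSS peaks. The detrained libraries differed from each other: without Ex1 the counts were 20 below and 9 above, against 51.5% and 26.0% of all shared TSS peaks, and without Ex2 they were 10 and 20, against 33.9% and 42.3%. Without C2 they were 14 and 13, against 44.7% and 31.3%, and without C3 13 and 13, against 40.0% and 36.4%.

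By layer, the 5 ATPase genes with a shared TSS peak had negative differences, with a median of -0.13, as had 5138 of all 9337 shared TSS peaks, and at 2 of them, Psmc3 and Psmc6, the groups did not overlap. The difference of Psmc4 turned positive with scaling to the tags in listed peaks (0.02) and with centring (0.01), and the peak over the RefSeq start of the sixth ATPase gene, Psmc1, differed by 0.22 with overlapping groups. The alpha ring split into 2 below and 3 above without overlap among 6 genes, the beta ring into 1 and 2 among 6, and the non-ATPase genes into 1 and 2 among 10. Of the 4 chaperone genes 2 lay below and 0 above, and of the 4 activator or inhibitor genes 2 below and 1 above. With so few genes in a layer these counts were not read against the 30.3% and 22.8% of all shared TSS peaks. Without division by peak length the ATPase genes no longer shared a direction, since Psmc3 and Psmc6 then lay above (0.18 and 0.08) and Psmc2, Psmc4 and Psmc5 had negative differences.

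The length of the called peak mattered for the direction of single genes, because peak boundaries were set separately in each list. On the scale of tags per peak, 11 member TSS peaks lay below and 9 above, against 29.5% and 16.1% of all. The sign of the difference was not the same on both scales at 16 of the 38 member TSS peaks and at 4756 of the 9337 in all. Ex1 and Ex2 were below C2 and C3 on both scales at 5 member TSS peaks, those of Psma7, Psmd3, Psmd5, Psme4 and Psmg1, against 9.76% of all shared TSS peaks. They were above on both scales at 5, those of Psma2, Psma6, Psmb5, Psmd11 and Psmf1, against 3.64% of all. These counts on both scales were chosen after the values had been seen. At 3 genes (Psma1, Psmc3, Psmc6) the groups separated downward per kb and upward per peak, and at 2 (Psma3, Psmd4) the reverse.

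**Figure D3:**
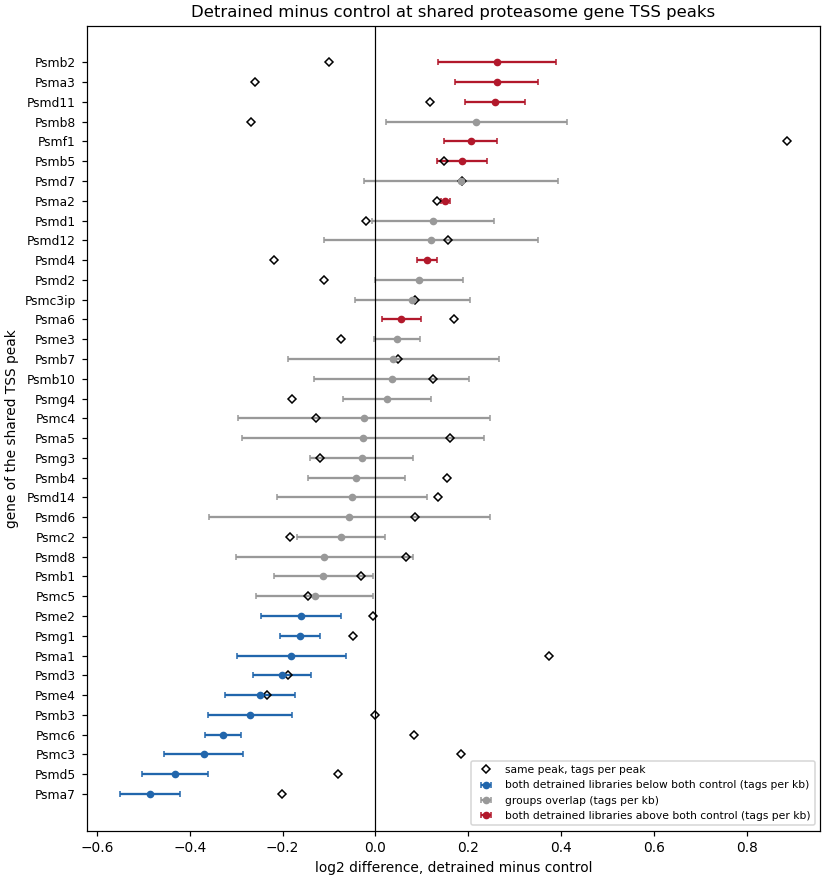
Detrained minus control log2 difference at the 38 shared proteasome gene TSS peaks (x axis) by gene (y axis). Filled points are tags per kb with the SD within groups as bars, coloured by whether the groups overlap, and open diamonds are the same peaks as tags per peak; the filled points run from -0.49 (Psma7) to 0.26 (Psmb2).

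Among the starts below on both scales, Psma7, an alpha ring subunit, had the largest decrease per kb and Psme4 per peak. Its TSS peak (chr2:180041212-180043452 in control, annotated as the promoter of the neighbouring gene Ss18l1 in both lists) was at 113 and 107 tags per kb in control and 81.2 and 75.6 in detrained libraries. The difference was -0.49 per kb, with an SD within groups of 0.07, and -0.20 per peak, with called lengths of 2240 and 2728 bp. Psmd5, the base assembly chaperone, went from 111 and 101 to 78.8 and 78.5, a difference of -0.43 per kb (SD 0.07) and -0.08 per peak. For both genes the detrained libraries were close to each other and well below the control libraries per kb, and the called peak was longer in the detrained list (1641 and 2094 bp for Psmd5). Psme4, which encodes the activator PA200, had a peak of nearly equal length in both lists (5004 and 5061 bp). It went from 96.1 and 104 to 87.0 and 81.2, a difference of -0.25 per kb (SD 0.08) and -0.23 per peak. Psmd3, a cap subunit, was also of equal length in both lists (1875 and 1890 bp) and went from 79.1 and 77.7 to 71.2 and 65.4, -0.20 per kb (SD 0.06) and -0.19 per peak. These 2 decreases did not depend on peak length.

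Among the increases at a start, that of Psmb2, a structural beta subunit, was the largest per kb. It went from 83.2 and 77.9 to 105 and 89.0, a difference of 0.26 (SD 0.13), but per peak the difference was -0.10 because the detrained peak was shorter (1866 and 1451 bp). Psmd11, a cap subunit, went from 65.6 and 71.6 to 81.1 and 82.7, with differences of 0.26 per kb (SD 0.06) and 0.12 per peak. Psmb5 rose in both detrained libraries on either scale, by 0.19 per kb (SD 0.05) and 0.15 per peak, with lengths of 1670 and 1625 bp. Psma2, an alpha ring subunit whose control peak was annotated as the promoter of Mrpl32, went from 60.1 and 60.4 to 66.4 and 67.4, or 0.15 per kb (SD 0.01) and 0.13 per peak. Psmf1 differed by 0.20 per kb (SD 0.06) and 0.89 per peak, with called lengths of 766 and 1229 bp. All of these increases were under 1.5-fold per kb.

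The other 50 control and 43 detrained peaks, called distal here, did not cover the annotated start and were assigned to the genes by nearest start alone. They include the Psmc1 peaks over its RefSeq start and the control peak just downstream of the Psmb6 start. They were weaker than the TSS peaks, with a median of 27.4 tags per kb in control and 24.1 in detrained mice, against 23.4 and 25.4 for all distal peaks. The distal peak with the most tags lay in intergenic sequence 36759 bp from the Psmb1 start (chr17:15457240-15465795, 8555 bp; 63.7 and 73.2 tags per kb in control, 78.8 and 73.4 in detrained). The next was centred at -5695 bp from the Psma3 start (chr12:70967338-70970519, intergenic; 117 and 132, then 116 and 115) and was denser than the Psma3 start in control mice. The others among the 5 with the most tags in control mice lay in an intron of Pip5k1a (assigned to Psmd4), in intron 3 of Psma3 and in intron 1 of Psme4. In detrained mice the 5 were the same Psmb1, Psma3 and Psmd4 peaks, a second Psmb1 peak 48695 bp from the start and a peak in intron 6 of Psmb7. Of the distal member peaks, 17 of 50 in control (34.0%) and 11 of 43 in detrained mice (25.6%) overlapped no peak of the other list, close to the 34.7% and 22.9% of all distal peaks. Member peaks without a counterpart were weak, with a median of 17.6 and 19 pooled tags per 10000000.

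Of the 24 shared distal member peaks, Ex1 and Ex2 were both below C2 and C3 at 9 (37.5%), against 25.4% of all shared distal peaks, and above at 5 (20.8%), against 20.5%. The 2 member peaks that differed by at least 1.5-fold without overlap were distal, against 3.59% of all shared distal peaks and 3.16% of all shared peaks. One lay upstream of Psmg4, a chaperone of 20S assembly, at 34.6 and 28.8 tags per kb in control and 15.6 and 22.3 in detrained libraries, a difference of -0.76 (SD 0.29). Per peak that difference was -0.02, with 24.7 and 24.8 pooled tags per 10000000. The other was the peak in the Pip5k1a intron assigned to Psmd4 (chr3:95068643-95071762), at 78.4 and 96.2 in control and 57.3 and 53.9 in detrained libraries. It differed by -0.64 per kb (SD 0.15) and by -0.40 per peak, so the groups were apart on both scales. As tags per peak, 8 shared distal member peaks lay below and 6 above, against 28.3% and 29.2% of all shared distal peaks. On both scales together 3 lay below (assigned to Psmc3, Psmd4 and Psmg2), against 9.5% of all, and 1 above (Psmg4), against 7.79%. With the TSS peaks included this made 8 of 62 member peaks below and 6 above, near the 9.6% and 6.37% of all shared peaks.

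The further decreases among the 5 largest were also distal. A peak centred at -2734 bp from the Psmc3 start (25.5 and 20.97, then 18.4 and 13.1) differed by -0.57 per kb (SD 0.28) and -0.84 per peak. A peak assigned to Psmg2 that lay in the 3′ UTR of Ptpn2 (33.5 and 45.2, then 24.6 and 28.2) differed by -0.56 (SD 0.24) and -0.39 per peak. A peak assigned to Psma1 (38.5 and 37.9, then 26.1 and 25.9) differed by -0.55 (SD 0.01) per kb and by 0.38 per peak, its length being 2198 and 4200 bp. Of the 5 largest increases, 4 were distal. The peak centred at -49913 bp from the Psme4 start (54.6 and 75.1, then 93.9 and 82.8) differed by 0.46 per kb (SD 0.25). A peak in intron 2 of Psmd6 differed by 0.40 (SD 0.30) and one in an Atxn7 intron assigned to Psmd6 by 0.27 (SD 0.04). Per peak these 3 differences were -0.26, -0.19 and -0.34, so their direction depended on the scale. The increase in an intron of Slc22a23, assigned to Psmg4 (16.1 and 19.7, then 24.2 and 20.8), was 0.33 per kb (SD 0.18) and 0.60 per peak.

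**Figure D4:**
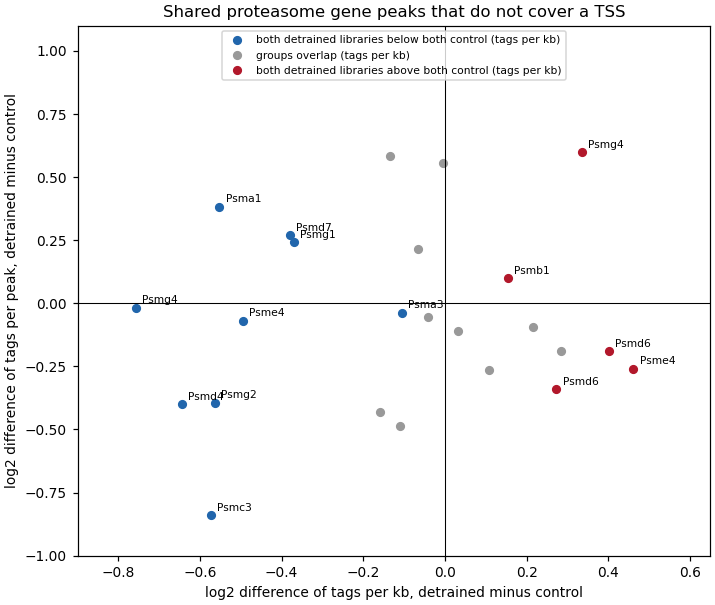
Detrained minus control log2 difference at the 24 shared proteasome gene peaks that do not cover an annotated start, as tags per kb (x axis) and as tags per peak (y axis), 1 point per peak. Labelled points are peaks whose groups did not overlap per kb; Psmd4, Psmc3 and Psmg2 lie low on both axes and 1 Psmg4 peak high on both, while the Psma1, Psmd7, Psmg1 and Psmd6 peaks and the Psme4 peak at -49913 bp have opposite signs.

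Genes that act with the proteasome were examined as a list of 26. A TSS peak was listed for 22 in control and 23 in detrained mice; Ngly1, Paaf1 and Rps27a had none in either. The ubiquitin gene Ubb stood at 160 and 179 tags per kb in control and 173 and 157 in detrained libraries, above the TSS peak of every subunit gene in every library. Nfe2l1, which encodes NRF1, went from 96.5 and 118.6 to 128 and 118.9, so that its groups were apart only narrowly, and Nfe2l2, which encodes NRF2, from 133 and 147 to 136 and 128. Of the 20 list genes with a shared TSS peak, 3 lay below (Usp14, Uba1 and Ecpas) and 5 above (among them Akirin2, Nfe2l1, Nploc4 and Ubqln2), against 30.3% and 22.8% of all shared TSS peaks, and the median difference was -0.03. Usp14, a deubiquitinase that binds the cap, differed by -0.38 per kb and -0.04 per peak. Akirin2, an import factor for proteasomes, differed by 0.34 per kb and 0.06 per peak. The muscle ubiquitin ligase gene Trim63 stood at 59.1 and 70.8 in control and 59.6 and 58.3 in detrained libraries, and the groups overlapped. The ligase gene Fbxo32 stood at 63.2 and 82.4, then 97.6 and 92.9, but its peaks were not a shared pair.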

How the data were processed

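Reads had been mapped by the authors to mm10 using Bowtie. They built HOMER tag directories, called peaks per group on both H3K27ac libraries against that group's input, and deposited 1 table per group. The deposited signal is the pooled tags per peak per 10000000 total tags. The log2 columns deposited for each library are regularized, normalized to total tags within a table and shrunken. Differences between libraries of a group are therefore understated, most at weak peaks but also at TSS peaks. The SD within groups and the calls of groups without overlap depend on these values. The authors' p-value and log2 ratio over input were used only to describe and filter peaks. Totals were 20805019 to 22400894 tags per library. Counting error bears most on peaks with few tags, many of them distal. It also bears on the weaker TSS peaks, as the lowest member TSS peak held 73.0 tags in a control and 75.8 in a detrained library. The submitters' processing notes name Bowtie 1.2 and HOMER.

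Tags per library were estimated by sharing out the pooled tags in proportion to library totals and 2 to the power of the log2 values. Density was (tags + 0.5) per kb per 10000000. Peaks were shared when they paired 1 to 1 among overlaps that covered at least 50% of each, with smaller overlaps ignored. TSS peaks were those reaching the annotated start. The SD was within groups, pooled over both. Control columns are named C2 and C3 while the labels number the mice otherwise, so columns were assigned to groups only. Named were the catalytic subunits and inducible counterparts, the highest and lowest gene of each class, the 5 largest increases and 5 largest decreases among peaks without overlap, the 5 distal peaks with the most tags, genes lacking a TSS peak, and single genes in counts of 5 or fewer, chosen after their values were seen. The genes and lists were chosen with earlier results of these data known. Values of some genes of the list of genes that act with the proteasome are not reported here. The other marker lists (endothelium, fibroblast, satellite cell, adipocyte and smooth muscle) had 4 of 4, 3 of 3, 2 of 2, 0 of 2 and 1 of 2 genes with a TSS peak in control mice, and 4, 3, 2, 0 and 2 in detrained mice. Alternatives covered peak length, scaling, centring, pseudocount, overlap, stricter peaks, the definition of a TSS peak and leaving out each library. The calculations were tested on simulated data whose library values were not shrunken, so the effect of the shrinkage was not tested. Motifs were searched on both strands of RefSeq promoters (GRCm38.p6, the build of mm10). Python 3.11.15, numpy 2.4.6, pandas 2.3.3 and matplotlib 3.10.9 were used.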

Additional observations from a re-analysis of the deposited data

How the results depend on the processing

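The median difference at shared proteasome gene TSS peaks (-0.03) moved by less than the SD within groups under every alternative run, from -0.11 to 0.05 when a library was left out. Of those TSS peaks, 10 lay below and 8 above. With scaling to the tags in listed peaks 13 lay above, with at least 80% of each peak covered 4 lay below and 4 above among 26 peaks (26.6% and 15.7% of all shared TSS peaks), and on both scales at once (chosen after seeing the data) 5 lay below and 5 above. Leaving out a library gave 10 to 20 below (33.9% to 51.5% of all shared TSS peaks) and 9 to 20 above (26.0% to 42.3%). The member median above all TSS peaks was 0.36 in control and 0.34 in detrained mice. It was 0.10 and 0.029 as tags per peak, 0.28 and 0.25 with stricter peaks (4-fold or more over input, with an adjusted p below 0.001), 0.43 in control mice with peaks annotated as promoter, 0.28 in control mice with peaks holding a RefSeq start (chosen after seeing the data), and 0.35 to 0.36 in control and 0.29 to 0.39 in detrained mice without 1 library. Genes with a TSS peak in both lists numbered 38, and 15 by the promoter annotation. The median log2 over input, 3.12 in control and 2.92 in detrained mice, was 3.02 as a mean in control mice, and 2.91 to 2.98 and 2.75 to 2.92 from single libraries, computed from the log2 values and not from the authors' ratio. Of 277 values of 27 named peaks under alternatives, 255 moved by less than the SD within groups, 16 moved by more, and 6 of peaks whose groups did not overlap reversed, all as tags per peak: Psma1 distal 0.38, Psma3 TSS -0.26, Psmb2 TSS -0.10, both Psmd6 distal -0.34 and -0.19, and Psme4 distal -0.26. These 6 changed with the called length, which enters the density. Counting peaks whose groups overlapped, 31 values had the other sign, 12 of them as tags per peak, among these Psmb8, Psmb4, Psmd1 and Psmd14. No paired analysis was possible because the libraries came from separate animals with no stated pairing, and the control columns carry numbers other than those of the labels. Values of 2 libraries per group, shared out from pooled tags, limit the precision, and weak distal peaks most.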
